A study of Capra hircus with 4 samples.

Results

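Heat shock proteins and small chaperones were described in the longissimus dorsi muscle of Cashmere goats aged 2 months. The genes were the small heat shock proteins HSPB1, CRYAB, HSPB6, HSPB7 and HSPB8, their partner BAG3, and the larger chaperones and helpers HSPA8, HSPH1, DNAJB1 and HSP90AA1. A gene was found by its name in the deposited table that pairs unigenes, the sequences assembled from the reads, with goat genes. This table named 8 of the 10 listed genes, through 14 unigenes, among 11208 goat genes in all, and HSPB1 and HSPB7 were not named in it. HSPB1 and CRYAB had been chosen by their high levels in the first treated library, so their values there are a description.

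The RNA-seq data comprised 4 libraries. Of these, 1 was a control, and 3 came from ractopamine-fed goats. Ractopamine, a β-adrenergic agonist, was given at 1 mg/kg body weight by mouth each morning for 28 dosing days, which were followed by 21 withdrawal days. The labels describe the treated libraries as replicates, whereas the study states that it sequenced treated goats of 3 time points, 1 during dosing and 2 after withdrawal, each with its control. The 3 libraries may therefore be 3 time points, a library may come from a goat that had not had all dosing days, and a fit over them may mix times. No time was given for a single library. The treated libraries are therefore called treatment 1, treatment 2 and treatment 3, as in their titles, and their numbers carry no order. Nothing said how many goats a library held. With 1 control library, differences between goats and differences due to treatment cannot be told apart, and an interval on a ratio covers counting error only.

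Chaperones bind unfolded or strained proteins and keep them from clumping. Small heat shock proteins such as αB-crystallin (CRYAB) hold such proteins without using ATP, and in muscle they sit along the Z-disc and on desmin filaments. HSPA8, the constitutive HSP70 of the cytosol, refolds them in cycles of ATP use that J-domain proteins such as DNAJB1 start and HSPH1 resets by exchanging the nucleotide. BAG3 links HSP70 with HSPB8 and directs damaged filamin to autophagy, and HSP90AA1 completes the folding of selected client proteins, among them myosin.

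The libraries differed in how much goat gene sequence they held. The expected counts of a library, which are the authors' estimates of its fragments, numbered from 6675218 to 8533046. Of these, unigenes paired with a named goat gene held 71.3% in the control and 50.1, 1.82 and 40.4% in treatments 1, 2 and 3. Treatment 2 thus had only 133809 goat gene counts, against 6086312 in the control and 2697657 or more in the others. Sequence whose best match was mitochondrial took 89.4% of all counts of treatment 2, against 23.3% in the control. Levels are given as counts per 1000000 goat gene counts (CPM), and a ratio is the level in a treated library divided by that in the control. Skeletal muscle markers were plentiful, and the 6 of 12 in the table summed to 85908, 92793, 106428 and 143795 CPM in the control and treatments 1, 2 and 3. Among them, ACTA1, at 21.4 CPM or less, was nearly absent by name, and the main unigene that matches skeletal actin is paired with ACTA2 in the table.

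Best database matches showed that some unigenes stood under the name of a relative. Unigene c984_g1, 963 bases long, was paired with CRYAB at 100% protein identity, and CRYAB was its best nucleotide match. Unigene c6448_g1, 900 bases long, was also paired with CRYAB, but at 48% identity, and its best nucleotide and Swiss-Prot matches were both HSPB1. Likewise c12842_g2, 2085 bases long, was paired with HSPB8 at 34% identity and matched HSPB7, whereas c2443_g1, 2004 bases long, was paired with HSPB8 at 100%. Under the best matches all 10 genes had a unigene, and this assignment was made after the annotation had been seen.

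The following stretches of 90 coding bases, aligned codon by codon, come from the part of the protein the family shares. They were chosen as the stretch of this length with the most amino acids identical to CRYAB. The genes are therefore more alike here than over their whole coding sequence. In the CRYAB line, capitals mark bases that all 4 genes share, and in the other lines they mark bases shared with CRYAB.
CRYAB, unigene c984_g1: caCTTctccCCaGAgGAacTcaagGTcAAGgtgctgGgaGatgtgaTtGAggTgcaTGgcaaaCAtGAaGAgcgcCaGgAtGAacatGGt
HSPB1, unigene c6448_g1: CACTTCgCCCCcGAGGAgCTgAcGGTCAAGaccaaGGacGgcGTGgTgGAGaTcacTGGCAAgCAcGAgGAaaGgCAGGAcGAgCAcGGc
HSPB6, unigene c9332_g1: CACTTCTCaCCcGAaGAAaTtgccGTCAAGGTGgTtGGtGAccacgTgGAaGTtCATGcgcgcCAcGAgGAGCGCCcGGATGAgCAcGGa
HSPB8, unigene c2443_g1: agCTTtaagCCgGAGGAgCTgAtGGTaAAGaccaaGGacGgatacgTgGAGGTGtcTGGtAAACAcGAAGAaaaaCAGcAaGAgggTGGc
The stretches begin at coding base 247 in CRYAB, 295 in HSPB1, 370 in HSPB6 and 310 in HSPB8. HSPB1 and HSPB6 each shared 60 of the 90 bases with CRYAB, HSPB8 shared 51, and 36 were common to all 4. Over the whole aligned coding sequence, 51.7% of 149 amino acids were identical between CRYAB and HSPB1, 51.0% of 151 between CRYAB and HSPB6, and 37.2% of 145 between CRYAB and HSPB8. The longest run of identical bases that the CRYAB unigene had in common with any of these 3 unigenes was 11 bases long, and that between HSPB8 and HSPB7 was 12 bases long.

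CRYAB, as the table pairs it, was the most abundant of the 8 genes in the control and in treatments 1 and 3. Its level was 6205 CPM in the control, 22899 in treatment 1, 1868 in treatment 2 and 1880 in treatment 3. Treatment 1 stood above the control and the other two stood below it. The ratios were 3.69 (95% exact Clopper-Pearson interval 3.65 to 3.74), 0.301 (0.265 to 0.341) and 0.303 (0.294 to 0.312). The unigene that matched CRYAB itself had 20308, 59999, 127 and 2870 counts, in the order control and treatments 1, 2 and 3, which gave ratios of 4.51, 0.284 and 0.319.

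HSPB1, the HSP27 that binds actin filaments and is phosphorylated under stress, was followed by its one unigene. Its level was 2868 CPM in the control, 7865 in treatment 1, 919 in treatment 2 and 816 in treatment 3. The order of the libraries was close to that of CRYAB, with treatment 1 highest and libraries 2 and 3 below the control. The ratios were 2.74 (2.69 to 2.79), 0.320 (0.266 to 0.383) and 0.285 (0.272 to 0.298). HSPB1 made up 46.2% of the counts paired with CRYAB in the control and 34.3% in treatment 1, so the 2 genes did not move by the same factor there.

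**Figure D1:**
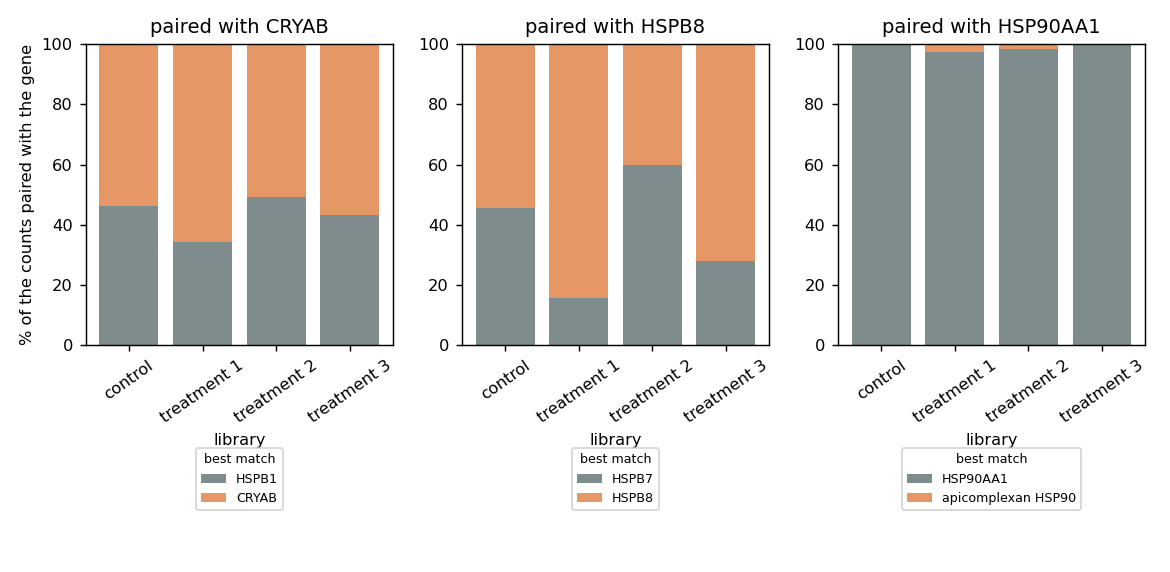
Percent of the counts paired with CRYAB, HSPB8 and HSP90AA1 (vertical axis) that came from unigenes of each best match, in the control and treatments 1, 2 and 3 (horizontal axis). Each bar adds to 100%, and the HSPB7 part of the HSPB8 pairing is 45.7% in the control and 15.8% in treatment 1.

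HSPB8, the small heat shock protein that works with BAG3, and HSPB7, a muscle protein that binds filamin C, were joined under the name HSPB8. The summed level was 1804 CPM in the control, 4112 in treatment 1, 613 in treatment 2 and 631 in treatment 3, with ratios of 2.28 (2.23 to 2.34), 0.340 (0.270 to 0.422) and 0.350 (0.332 to 0.368). Their own unigenes differed in treatment 1. The HSPB8 unigene went from 979 CPM in the control to 3461, 247 and 454 in treatments 1, 2 and 3, with a ratio of 3.54 (3.43 to 3.65) in library 1. The HSPB7 unigene went from 825 CPM to 652, 366 and 178, with a ratio of 0.790 (0.753 to 0.828) in library 1, and it was the only one of the 10 genes that was highest in the control. Only 33 counts in treatment 2 came from HSPB8 and 49 from HSPB7.

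BAG3, the cochaperone that joins HSP70 with HSPB8, had 416 CPM in the control, 780 in treatment 1, 82.2 in treatment 2 and 107 in treatment 3. Treatment 1 was again highest, with a ratio of 1.87 (1.78 to 1.98). In treatment 2 the ratio was 0.198 (0.0985 to 0.354) and rested on 11 counts, and in treatment 3 it was 0.257 (0.226 to 0.290). Of its 4 unigenes, c8663_g1 held 99.9% of the gene's counts in the control.

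HSPB6, the small heat shock protein Hsp20 that protein kinase A phosphorylates, was above the control in treatment 2, where the other 4 small heat shock proteins were below it. Its level was 1198 CPM in the control, 2416 in treatment 1, 3924 in treatment 2 and 1333 in treatment 3. On this scale all 3 treated libraries were above the control, with ratios of 2.02 (1.96 to 2.08), 3.28 (2.99 to 3.58) and 1.11 (1.07 to 1.16). The value in treatment 2 rested on 525 counts. The directions in treatments 2 and 3 rested on the chosen total. As a share of all counts of the library the ratios there were 0.0837 and 0.631, and with the nameless mitochondrial unigenes added to the total they were 0.0910 and 0.655, so that HSPB6 was then above the control in treatment 1 alone.

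Markers of other cell types stood high in treatment 2 beside HSPB6. The 3 of 5 adipocyte markers in the table summed to 14.8 CPM in the control and to 111, 859 and 28.5 in treatments 1, 2 and 3. The 3 of 5 fibroblast markers summed to 114, 168, 2220 and 270 CPM in the same order, and the 3 of 4 endothelial markers to 277, 164, 725 and 346. Of the smooth muscle markers, TAGLN had 34.7, 79.9, 120 and 67.5 CPM and MYH11 12.5 to 22.4. ACTA2 had 39135, 24725, 31724 and 55399 CPM and is not read as smooth muscle, because of the actin pairing described above. The 4 of 5 myeloid markers summed to between 2.30 and 18.5 CPM, with CD14 at 0 in every treated library, and none of the 3 red blood cell markers was named in the table. The part of these cells in the result was not tested. In bulk muscle, fewer cells of a type and less RNA per cell cannot be told apart.

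HSPA8 had 1385 CPM in the control, 1862 in treatment 1, 695 in treatment 2 and 1269 in treatment 3. The ratios were 1.34 (1.30 to 1.39), 0.502 (0.405 to 0.616) and 0.917 (0.881 to 0.954), and its highest level was 2.68 times its lowest. HSP90AA1 had 1126, 1225, 964 and 653 CPM in the same order, with ratios of 1.09 (1.05 to 1.13), 0.856 (0.714 to 1.02) and 0.580 (0.550 to 0.611). The interval of HSP90AA1 in treatment 2 spanned 1, so no difference was detectable there at this depth.

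A second unigene paired with HSP90AA1, c12453_g1, was 67% identical to the goat protein, and its best nucleotide match was an HSP90 of Neospora caninum, a protozoan parasite. It had 3 counts in the control and 122, 2 and 0 in treatments 1, 2 and 3. Those were 2.49% of the counts paired with HSP90AA1 in treatment 1, and without them the ratio of HSP90AA1 in that library was 1.06 (1.02 to 1.10).

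HSPH1, the nucleotide exchange factor HSP110, and DNAJB1, the J-domain protein HSP40, were the least abundant of the 10 genes in the control. HSPH1 had 45.7 CPM in the control, 104 in treatment 1, 22.4 in treatment 2 and 18.5 in treatment 3. Its ratios were 2.28 (1.96 to 2.67), 0.491 (0.101 to 1.45) and 0.406 (0.294 to 0.550), and the value in treatment 2 rested on 3 counts. DNAJB1 had 53.4, 110, 89.7 and 33.4 CPM, with ratios of 2.06 (1.78 to 2.38), 1.68 (0.859 to 2.97) and 0.625 (0.489 to 0.791). Both values of treatment 2 had intervals that included 1. HSPH1 was assembled as 2 transcripts, of which the longer held 52.9% of its counts in the control and 49.0% in treatment 1. DNAJB1 was assembled as 3 transcripts, and the longest held 39.1 and 36.8%.

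**Figure D2:**
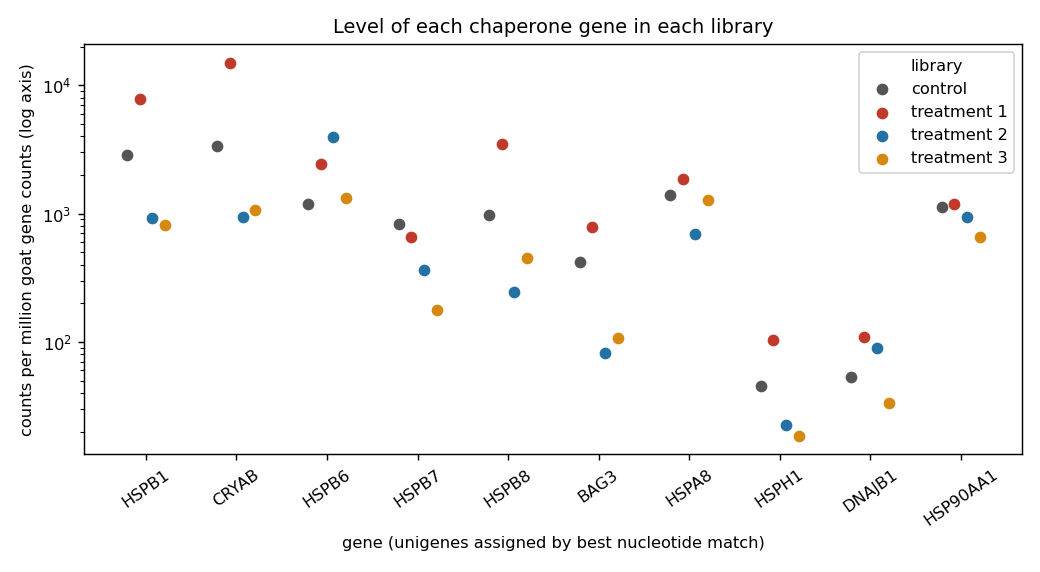
Level of the 10 chaperone genes (horizontal axis) in CPM of goat gene counts (vertical log axis), with unigenes assigned by best nucleotide match and 1 point for each of the 4 libraries. Treatment 1 is the highest point for 8 of the 10 genes, HSPB6 is highest in treatment 2 and HSPB7 in the control, an order that holds for this total and not for shares of all counts. HSPB1 and CRYAB, among the 8, were chosen for their level in treatment 1.

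By best match, treatment 1 was the highest library for 8 of the 10 genes, and the lowest was treatment 3 for 5 genes, treatment 2 for 4 genes and the control for 1 gene, HSPB6. HSPB1 and CRYAB are among these 8 and were chosen for their level in treatment 1. The highest and lowest libraries were not counted over all goat genes, so nothing particular to the 10 genes is read from the counts. The order of the libraries also depends on the total. As a share of all counts, treatment 1 was highest for 7 genes, the control was highest for HSPB7, HSPA8 and HSP90AA1, and treatment 2 was lowest for all 10. The 10 genes together took 1.22% of the goat gene counts in the control, 3.35% in treatment 1, 0.824% in treatment 2 and 0.593% in treatment 3. The 5 small heat shock proteins held most of this, with 0.921, 2.94, 0.640 and 0.384%. HSPB1 and CRYAB, which were chosen by their level in treatment 1, carry much of these sums, and the 8 genes without them took 0.603, 1.06, 0.637 and 0.405%. Between treatments 1 and 3, the treated libraries with the most goat gene counts, the level differed by a factor of 14.1 (13.6 to 14.7) for CRYAB, 9.64 (9.23 to 10.1) for HSPB1, 7.63 (7.19 to 8.09) for HSPB8 and 7.31 (6.47 to 8.27) for BAG3. The factor was 5.62 (4.19 to 7.70) for HSPH1, 3.67 (3.33 to 4.05) for HSPB7 and 3.29 (2.62 to 4.17) for DNAJB1. It was 1.83 (1.73 to 1.93) for HSP90AA1, 1.81 (1.74 to 1.88) for HSPB6 and 1.47 (1.41 to 1.53) for HSPA8. CRYAB and HSPB1 were chosen for their level in treatment 1, and the factor was not taken over all goat genes. Nothing particular to the 10 genes is therefore read from it.

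Per length, CRYAB and HSPB1 were among the strongest goat genes in muscle. On the scale of TPM restricted to goat genes, the CRYAB unigene had 5304 in the control and 20852 in treatment 1, and the HSPB1 unigene had 4970 and 11883. Among 11211 genes, CRYAB ranked 22 in the control and 10 in treatment 1, and it ranked 113 and 86 in treatments 2 and 3. HSPB6 followed with 1085 TPM in the control and was the first of the 10 genes in treatment 2 with 3073. HSPA8 (806), HSPB8 (658), HSPB7 (530), HSP90AA1 (482) and BAG3 (206) came next in the control, and DNAJB1 (25.7) and HSPH1 (16.2) were last. HSPH1 was last in all 4 libraries.

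The study's limits on the ratio were above 3 or below 0.6. For a target gene it also required high significance and ratios that did not differ significantly between its time points, and it considered signal pathways. Only the limits on the ratio are used here, with 1 control library for all treated libraries. As the table pairs the unigenes, 1 of the 8 genes, CRYAB, was above 3 in treatment 1, where 5.15% of 3725 goat genes with a mean of at least 20 CPM were. CRYAB was chosen for that value, and nothing is read from it. None of the 8 was below 0.6 in that library, where 30.8% of goat genes were. In treatment 2, 1 gene, HSPB6, was above 3, beside 11.5% of goat genes, and 5 of 8 were below 0.6, beside 36.3%. In treatment 3, none was above 3, beside 2.23%, and 5 of 8 were below 0.6, beside 30.7%. The genes below 0.6 were CRYAB, HSPB8, BAG3 and HSPH1 in both libraries, joined by HSPA8 in library 2 and by HSP90AA1 in library 3. Some of their intervals included values over 0.6. In library 2 these were HSPH1 (0.101 to 1.45, from 3 counts) and HSPA8 (0.405 to 0.616), and in library 3 HSP90AA1 (0.550 to 0.611).

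No gene was above 3, or below 0.6, in every one of the 3 treated libraries, where 0.886% of goat genes were above 3 and 14.5% were below 0.6. The median ratio of the 8 genes was 2.04 in treatment 1, 0.496 in treatment 2 and 0.493 in treatment 3, where the medians of all 3725 genes were 0.843, 0.780 and 0.788. The median of the 8 genes in treatment 1 includes CRYAB, which was chosen for its level there, and it is a description only. With treatment 1 left out, 4 of the 8 were below 0.6 in both remaining libraries, and 1 of them, HSPH1, rested on 3 counts in treatment 2. The share of goat genes below 0.6 in both was not counted, so nothing particular to the 8 genes is read from this. All 8 genes passed the minimum of 20 CPM. The values nearest to the limits were 0.580 for HSP90AA1 and 0.625 for DNAJB1, both in treatment 3, and 3.28 for HSPB6 in treatment 2. With unigenes assigned by best match, 2 of 10 genes were above 3 in treatment 1, CRYAB and HSPB8, and HSPB1 at 2.74 lay just under the limit. Under that assignment 7 of 10 genes were below 0.6 in treatment 2 and 7 of 10 in treatment 3.

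**Figure D3:**
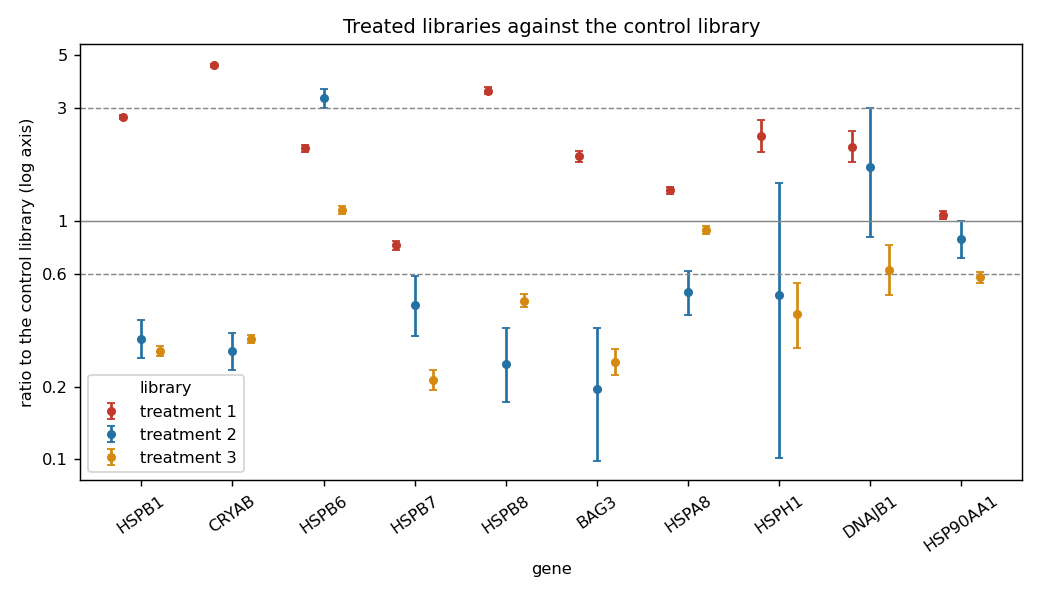
Ratio of each treated library to the control (vertical log axis) for the 10 chaperone genes by best match (horizontal axis), with bars for the 95% exact interval of counting error and dashed lines at 3 and 0.6. CRYAB and HSPB8 lie above 3 in treatment 1, and only HSPB6 does in treatment 2, where it falls to 0.0837 as a share of all counts.

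The choice of the total set the size of these ratios. With the mitochondrial unigenes that carry no gene name in the total, the ratios of the 8 genes lay between 0.817 and 2.77 in treatment 1, 0.00549 and 0.0910 in treatment 2, and 0.151 and 0.655 in treatment 3. CRYAB was then at 2.77, 0.00836 and 0.178. With the median ratio of all tested genes set to 1, they lay between 1.29 and 4.38, 0.253 and 4.20, and 0.326 and 1.41. Under the first of these totals CRYAB was within the limits in treatment 1, and all 8 genes were below 0.6 in treatment 2. The nameless unigenes held 97.9% of the paired counts of treatment 2, against 23.8% in the control. That total thus lowers every goat gene there, and the share of goat genes below 0.6 under it was not counted. Another total multiplies every ratio of a library by the same factor, for the other chaperones described here too, and leaves the order of the genes within that library as it is.

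Ratios also moved with the length of the unigene. In treatment 1 the median ratio was 1.48 for the 434 genes whose main unigene was under 1000 bases, 0.944 for 1022 genes from 1000 to 2000 bases, 0.733 for 1546 genes from 2000 to 4000 bases and 0.611 for 723 longer genes. The medians of the shortest and the longest class were 1.59 and 0.504 in treatment 2 and 1.47 and 0.550 in treatment 3. CRYAB and HSPB1 belonged to the shortest class, and their ratios in treatment 1 were 3.04 and 1.85 times the median of that class. Against genes of like length, HSPB8 was at 4.83 times the class median there, HSPH1 at 3.12, DNAJB1 at 2.81 and BAG3 at 2.56, and HSPB7, at 1.08, was nearest to its class. HSPB1 and CRYAB had been chosen for being high in treatment 1, and the other 8 genes were also above the median of their class there. Of all 10 genes, 3 were above it in treatment 2 and 2 in treatment 3. In treatments 2 and 3, CRYAB was at 0.178 and 0.217 times its class median and HSPB1 at 0.201 and 0.194. The part of length in the ratios was not tested.

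**Figure D4:**
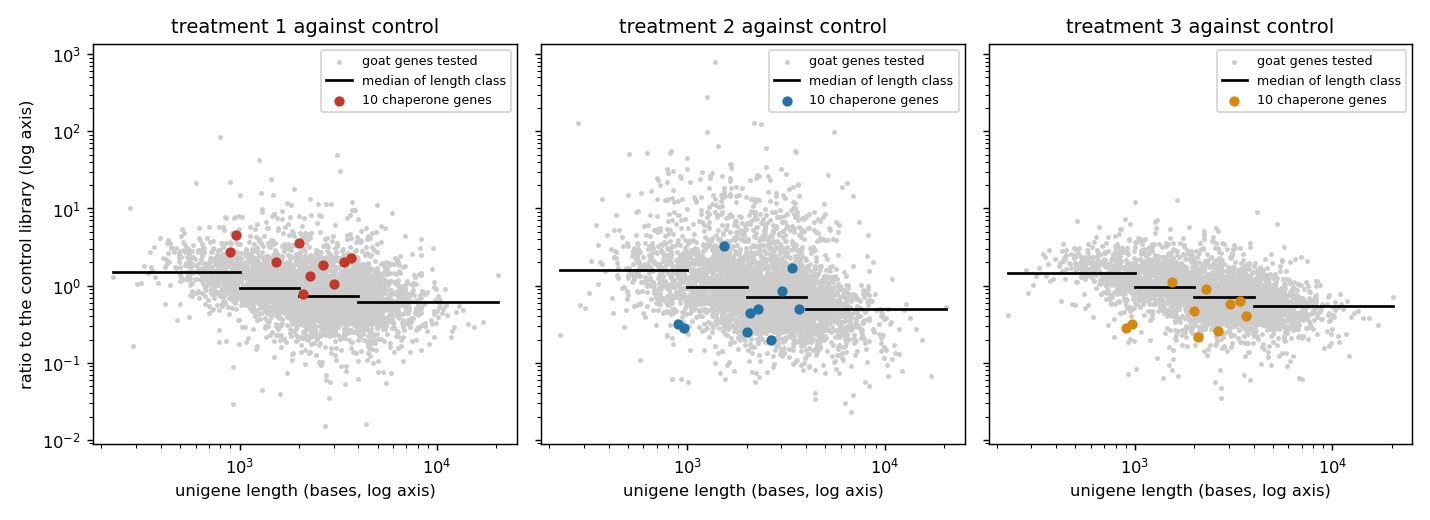
Ratio of each treated library to the control (vertical log axis) against the length of the gene's main unigene in bases (horizontal log axis) for 3725 goat genes in grey and the 10 chaperone genes in colour, with black lines at the median of each length class. In treatment 1 the 10 genes lie at or above the lines, and in treatment 3 most lie below them.

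With the 3 treated libraries as 1 group, edgeR's quasi-likelihood test with Benjamini-Hochberg adjustment called none of 3725 goat genes higher (0.0%) and none lower (0.0%), and hence none of the 8 genes, at an adjusted p under 0.05. At an unadjusted p under 0.05 there were 85 genes higher and 150 lower, and none was one of the 8. DESeq2, as an alternative, called 3 goat genes higher and 0 lower, and edgeR without treatment 1 called 11 higher and 3 lower, again with none of the 8 among them. The control library was 1 sample and was assumed to vary like the treated ones. For the 7 genes other than CRYAB, log2 fold changes lay between -0.08 (SE 1.28) for BAG3 and 1.36 (SE 0.90) for HSPB6, with edgeR adjusted p from 0.709 to 0.996. HSPB6 was higher in 3 of 3 treated libraries relative to goat gene counts, but in 1 of 3 as a share of all counts. CRYAB, which treatment 1 had helped to choose, was read without that library, and its log2 fold change was then -1.39 (SE 0.89, edgeR adjusted p = 0.751). It was lower in 2 of 2 libraries.

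Other chaperones were taken from lists that also held heat shock factors and the clients and partners of BAG3. Of 111 listed genes, 101 were named in the table and 79 passed the minimum level. In treatment 1, 6 of the 79 were above 3 and 15 were below 0.6, in treatment 2, 5 and 29, and in treatment 3, 1 and 27. Over all goat genes the shares were 5.15 and 30.8%, 11.5 and 36.3%, and 2.23 and 30.7%, and those shares are also the background of the list counts that follow. Of the 5 in treatment 2, CLPB had 18 counts, all from unigenes with an Escherichia coli best match, and HSPA6 had 2 counts. The median ratios of the 79 were 0.852, 0.738 and 0.753, near those of all goat genes given above. The minimum level is a mean over the 4 libraries. HSPA6, HSF4 and DNAJB9 reached it only through treatment 1, and CLPB only through treatment 2, the libraries where they were high. Nothing is read from those calls.

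**Figure D5:**
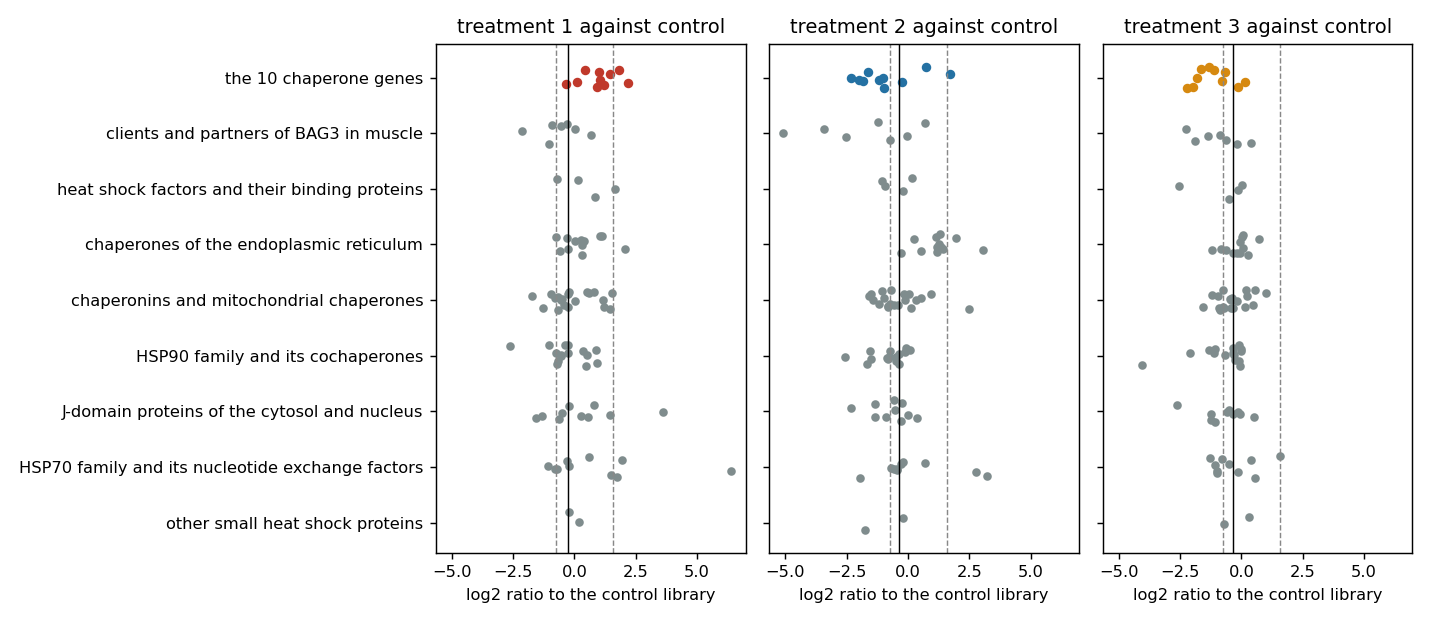
Log2 ratio of each treated library to the control (horizontal axis) for the 10 chaperone genes (colour) and the tested genes of 8 lists (grey, rows). The lists hold other chaperones, heat shock factors, and clients and partners of BAG3. Dashed lines are at ratios of 3 and 0.6, and a solid line is at the median of all goat genes. The 10 genes lie mostly right of the solid line in treatment 1 and left of it in treatment 3, while the lists spread on both sides.

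In the HSP70 family and its exchange factors, 3 of 10 tested genes were above 3 in treatment 1, 2 in treatment 2 and 1 in treatment 3. Below 0.6 were 2, 1 and 5 of the 10 in the same order. The gene with the highest level was the one paired with HSPA1L, whose main unigene, c13534_g1, had sheep HSP70.1, an inducible HSP70, as best nucleotide match. That unigene had 15372, 28620, 229 and 3464 counts in the control and treatments 1, 2 and 3, with ratios of 2.84, 0.678 and 0.508, the same order as for HSPB1. HSPA12B, a distant HSP70 relative of endothelium, was above 3 in all 3 treated libraries, with 12.7 CPM in the control and 47.9, 120 and 38.2 in the treated ones, but its interval in treatment 3 (2.22 to 4.11) included values under the limit. HSPA6, another inducible HSP70, and BAG2, an exchange factor, were named after their values had been seen. HSPA6 had 3.29 CPM in the control and 277, 14.9 and 4.82 in the treated libraries, and its ratio in treatment 2, from 2 counts set to the floor of 3, had an interval of 0.515 to 18.7. HSPA6 reached the minimum level only through treatment 1. BAG2 had 59.8, 199, 52.3 and 28.5.

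The J-domain proteins had 1 of 10 tested genes above 3 in treatment 1, DNAJB4, which is a partner of HSP70 close to DNAJB1. Above 3 were 0 in treatments 2 and 3, and 2, 4 and 4 were below 0.6 in treatments 1, 2 and 3. DNAJB4 had 52.7 CPM in the control, 636 in treatment 1, 52.3 in treatment 2 and 35.6 in treatment 3, a ratio of 12.1 (10.7 to 13.6) in library 1. DNAJB2 was below 0.6 in all 3 treated libraries, with ratios of 0.401, 0.394 and 0.469, and the second was set at the floor of 3 counts, from 2 counts, with an interval of 0.0317 to 0.957. In the HSP90 family and its cochaperones, none of 15 tested genes was above 3, and 3, 8 and 5 were below 0.6 in treatments 1, 2 and 3. HSP90AB1, the constitutive HSP90, had ratios of 0.677, 0.720 and 0.468. SMYD1, a methyltransferase needed for myosin assembly, was below 0.6 in all 3 treated libraries, with 390 counts in the control and 41, 0 and 40 in the treated ones.

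The 2 further small heat shock proteins that were tested were near or below the control in treatment 1. HSPB3 had 149 CPM in the control and 129, 44.8 and 92.3 in the treated libraries. HSPB2, which neighbours CRYAB on the goat chromosome in the ARS1.2 gene list, had 68.4 CPM in the control and 76.9, 59.8 and 85.3 in the treated libraries. Its ratio in treatment 1 was 1.13 (0.968 to 1.31), an interval that includes 1. HSF1, the main transcription factor of the heat shock response, had 230, 142, 112 and 231 CPM. HSF4, named after its values had been seen, was the one heat shock factor above 3 in treatment 1, with 62.1 CPM there and a ratio of 3.10 (2.49 to 3.88). It reached the minimum level only through that library, so nothing is read from the call.

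Chaperones of the endoplasmic reticulum had a median ratio of 2.36 over 12 tested genes in treatment 2, with 2 above 3, against 1.22 and 0.957 in treatments 1 and 3. Above 3 were 1 in treatment 1 and 0 in treatment 3, and below 0.6 were 1, 0 and 2 in treatments 1, 2 and 3. Calreticulin (CALR) had the highest level and a ratio of 2.28 (1.58 to 3.19) in treatment 2. SERPINH1, the collagen chaperone HSP47, had 17.7 CPM in the control and 149 in treatment 2, with the fibroblast markers given above, and it was named after its values had been seen. Of 20 tested chaperonins and mitochondrial chaperones, none was above 3 in treatments 1 and 3, 1 was in treatment 2, the CLPB named above, and 4, 9 and 6 were below 0.6. PFDN5, a prefoldin subunit, had the highest mean level over the 4 libraries, with ratios of 2.73, 1.90 and 1.99, whereas in the control CCT3, a chaperonin subunit, was higher, with 249.7 CPM against 138. DNAJA3 was below 0.6 in all 3 treated libraries, with ratios of 0.407, 0.331 and 0.542.

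Clients and partners of BAG3 in muscle differed among themselves in treatment 1, where none of 7 was above 3 and 3 were below 0.6. Desmin (DES), the filament that CRYAB protects, had 14273 CPM in the control and 14610, 13908 and 12691 in the treated libraries. SYNPO2, the Z-disc partner of BAG3, had 2011 CPM in the control and 453, 59.8 and 539 in the treated libraries. SQSTM1, the autophagy receptor p62, had 814, 391, 142 and 318 CPM, and WIPI1, an autophagosome protein, had 52.1, 27.3, 14.9 and 28.2, so that these 3 genes were below 0.6 in every treated library. For WIPI1 the intervals of all 3 ratios included values over 0.6, and treatment 2 had 2 counts. Filamin C (FLNC), the client of BAG3, was covered mainly by 2 unigenes that differed in treatment 1. The one of 1597 bases had ratios of 4.62, 0.273 and 0.531 in treatments 1, 2 and 3. The one of 7545 bases had ratios of 0.527, 0.0311 and 0.0969, so both were below 0.6 in treatments 2 and 3.

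The genes whose 3 log2 ratios lay nearest to the mean of HSPB1 and CRYAB, among 979 goat genes with a mean of at least 100 CPM, were ASB5, KLHL40, ANKRD1, PDE4D and IVNS1ABP. ASB5, an ankyrin and SOCS box protein of muscle, had 472 CPM in the control, 2088 in treatment 1, 149 in treatment 2 and 123 in treatment 3, a distance of 0.395. KLHL40, which steadies thin filament proteins, had 748, 3583, 194 and 250 CPM, a distance of 0.519. ANKRD1, a stretch-responsive protein of the sarcomere, had 1422, 6334, 374 and 542 CPM, a distance of 0.521. PDE4D, a phosphodiesterase that degrades cAMP, was at 0.661 and IVNS1ABP at 1.01. The distance is over 3 values from libraries that share 1 control, and it is a description of these libraries.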

How the data were processed

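RNA of goat muscle was sequenced by the authors from NEBNext Ultra libraries, and reads were assembled into 59774 unigenes. FastQC 0.10.1 is named in the submitters' processing notes, and the assembler and counter are not given in the sources used here. The authors deposited expected counts (all whole numbers), TPM and FPKM per unigene and transcript, and a table of goat genes with identity in percent. Expected counts were summed per goat gene and divided by the counts of all unigenes with a goat gene name. The 25 paired unigenes without a name, of the mitochondrial genome, were left out of the total (23.8 to 97.9% of paired counts). Counts of 3 or fewer were set to 3 for ratios, a floor of 0.493, 0.752, 22.4 and 1.11 CPM in the control and treatments 1, 2 and 3. Intervals are exact Clopper-Pearson at 95%. Genes with a mean of at least 20 CPM were tested with edgeR 4.0.16 (TMM) on rounded counts, with DESeq2 1.42.0 as an alternative. On simulated data with a dispersion of 0.1 and 8-fold changes, edgeR recovered 192 of 200 changed genes, with 8 false calls. That dispersion was set and not taken from these libraries, so this check does not show what the fit could find here.

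Named genes were the 10 genes, from each list the one of highest level and up to 3 outside the limits in all 3 treated libraries, and the 5 of most similar ratios. HSPB2, CCT3, FLNC, CLPB and DNAJB9 were named outside this rule, as were HSPA6, BAG2, HSF4 and SERPINH1. The members and lists were chosen with earlier results of these data known. The assignment by best match, the length classes and the totals with nameless unigenes or without TFCP2L1 were chosen after seeing the data. Sequences come from the deposited unigene sequences. Of the goat gene names, 10197 were found in ARS1.2. Python 3.11.15, scipy 1.17.1, pandas 2.3.3 and R 4.3.3 were used. The tables of FPKM intervals were not used.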

Additional observations from a re-analysis of the deposited data

Results flagged for a closer look

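The best nucleotide match of 18 unigenes, the HSP90 unigene c12453_g1 among them, was a sequence of an apicomplexan parasite. As the table pairs it, c12453_g1 was counted with HSP90AA1, whose ratio in treatment 1 was 1.09 with it and 1.06 without it. The 18 unigenes had 325 counts in treatment 1 and 147 in treatment 2, above the 9 counts of the control, while treatment 3 had 1. In CPM of the whole library these were 40.8 (95% exact interval 36.5 to 45.5), 20.03 (16.9 to 23.5), 1.05 (0.482 to 2.00) and 0.150 (0.00379 to 0.835), in that order.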

How the results depend on the processing

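Of the 8 genes, 1, 1 and 0 were above 3 and 0, 5 and 5 below 0.6 in treatments 1, 2 and 3. As a share of all counts, from FPKM times length, or with the nameless unigenes in the total, 0 were above 3 in treatments 1 and 2. Below 0.6 were then 8 in treatment 2 and 7 in treatment 3, and HSPB6 in treatment 2 turned to 0.0837, 0.0841 and 0.0910. Without mitochondrial, ribosomal and bacterial unigenes, 0 were above 3 in treatment 2. With the median ratio of all genes set to 1, 3 were below 0.6 in treatment 2. With the median of genes of like length set to 1, 2 were above 3 in treatment 1, HSPB8 (3.11) and HSPH1 (3.12), while CRYAB was at 2.49, and 3 below 0.6 in treatment 2. With 1 unigene per gene, an identity of at least 70%, or best matches, 2 were above 3 in treatment 1. With limits of 2 and 0.5, 5 were above 2 there. Leaving out 1 treated library gave 0 to 4 genes below 0.6 in all the others (4 without treatment 1) and 0 above 3. The total without TFCP2L1 changed none of these counts. The share of all goat genes outside the limits was not counted for these totals, limits or left-out libraries. Nothing particular to the 8 genes is therefore read from these counts. DESeq2 called 3 goat genes higher, edgeR without a filter 42 higher and 62 lower, and edgeR without one treatment 0 to 11 higher and 0 to 3 lower (11 and 3 without treatment 1), and none of the 8 genes was called by any of them. The cause of these shifts was not tested. Over these fits the adjusted p of the 8 genes by edgeR or DESeq2 lay between 0.616 and 0.999. No paired analysis was possible, because there was 1 control library and no label ties it to a treated library. Depth limits treatment 2, where 3 counts are 22.4 CPM.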
